A study of Mus musculus with 4 samples.

Results

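Fractalkine and its receptor are a chemokine and receptor pair encoded by Cx3cl1 and Cx3cr1. They were taken as the 2 genes of the 30905 measured whose symbols are Cx3cl1 and Cx3cr1. This rule uses symbols and no measured value, but the pair was chosen with earlier results of these data known. Fractalkine is made as a mucin-stalked protein anchored in the cell membrane, where it holds leukocytes that carry the receptor, and proteases of the ADAM family can cut it into a soluble chemoattractant. Inflamed endothelium and stromal cells are its usual sources. The receptor is a G protein-coupled receptor known from microglia, many tissue macrophages, patrolling (nonclassical) monocytes, and subsets of NK cells and effector T cells.

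The cells came from mouse heart grafts collected at day 5 after heterotopic transplantation and profiled by droplet single-cell RNA-seq, in which a unique molecular identifier (UMI) marks each captured RNA molecule near its 3′ end. There were 2 allogeneic grafts, in which a Balb/C donor heart was placed in a C57BL/6J recipient, and 2 syngeneic grafts, in which donor and recipient were both C57BL/6J. The animals were young adult male mice. A graft holds donor cells and recipient cells that have entered it, and these origins are not separated here. The merged table marks cells with 4 barcode suffixes, called libraries 1 to 4 below, and nothing in the labels pairs a suffix with a graft. The libraries were therefore not assigned to the allogeneic or syngeneic group, these groups were not compared, and no statistical test was run. For the main levels of the 2 genes, each library's value is given beside the pooled one.

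The 4 libraries held 13112 to 13907 cells and 96020294 to 166079145 UMIs each. After filters 42395 of 53824 cells remained, with a median of 4571.5 to 11895 UMIs per cell by library. Among all deposited cells 308 barcodes occurred under more than 1 suffix, and leaving those cells out moved none of the 4 class levels described below beyond its counting interval. The level of a gene in a set of cells, in CPM, is its pooled UMI count for every 1000000 non-mitochondrial UMIs, with an exact Poisson 95% interval. Shares of cells carry an exact Clopper-Pearson 95% interval. Both cover counting error only, not differences between animals, and a count tied to the 3′ end does not compare the level of 1 gene with that of another.

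Cell classes were named from marker genes that include neither member. The endothelial-like class stood at 1237 CPM for Cdh5 (vascular cadherin), against 19.4 in the fibroblast-like, 7.92 in the macrophage/monocyte-like and 12.7 in the T/NK-like class. Col1a1, a collagen chain, was at 6956 CPM in the fibroblast-like class and at 28.0 to 129 in those other classes and the pericyte-like class. Csf1r, the receptor for the macrophage growth factor CSF1, was at 523 CPM in the macrophage/monocyte-like class, and Cd3e, a T cell receptor subunit, at 331.7 CPM in the T/NK-like class. In the pericyte-like class Kcnj8, a potassium channel subunit of pericytes, reached 524.9 CPM, yet Cdh5 reached 718 CPM and 54.2% of the cells had a Cdh5 UMI, so endothelial RNA moved with this class and its part in the class's ligand level was not tested.

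Cx3cl1 (ENSMUSG00000031778) lies on the plus strand at chr8:94772009-94782427 of mm10, with 6 annotated transcripts and no overlapping gene. Cx3cr1 (ENSMUSG00000052336) lies on the minus strand at chr9:119901616-120069879, with 3 annotated transcripts. Its span overlaps 9 other genes, of which Csrnp1, Gorasp1 and Xirp1 lie on the same strand, but none shares exon bases with it. The 30 bases before the RefSeq start of each gene are shown side by side, from chr8:94772150-94772179 (plus strand) and chr9:120068297-120068326 (minus strand) of GRCm38.p6. Both stretches lie inside the gene spans given above, so the RefSeq start used is not the outermost annotated start of either gene. Each reads 5′ to 3′ and ends at the base next to the start, and capitals mark a GC box (GGGCGG) and a TATA box (TATAAA).
Cx3cl1: cggGGGCGGaggctgccagcccatTATAAA
Cx3cr1: tggctaacttcgaaaataaagatgccctca
The Cx3cl1 stretch held both boxes, and the Cx3cr1 stretch held neither. The 250 bases before each start were searched on both strands for 6 motifs, the TATA box, the GC box, the PU.1 motif GAGGAA, the NF-kB motif, the GAS motif TTCNNNGAA and the ISRE motif. The NF-kB motif was GGGA, any 4 bases and CC. The ISRE motif was a pair of GAAA with any 2 bases between them. Cx3cl1 also held the PU.1 letters 93 to 88 bases before its start on the plus strand and 66 to 61 bases before it on the minus strand, with no overlap between the motifs found. Cx3cr1 held none of the 6 motifs in its window. Of 32851 RefSeq promoter windows of the same length, 12.4% held the TATA box, 32.7% the GC box, 17.6% the NF-kB motif, 7.02% the GAS motif, 2.98% the ISRE motif and 23.3% the PU.1 motif. A match is a run of letters and not a bound site.

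The first question was which cells of the grafts carried the ligand. Over the pooled libraries Cx3cl1 was highest in fibroblast-like cells, followed by pericyte-like and endothelial-like cells, and was near the background in leukocytes. Fibroblast-like cells, which build the extracellular matrix, stood at 56.8 CPM (55.2 to 58.4, 4773 cells) and held 51.6% of all Cx3cl1 UMIs. Pericyte-like cells, which wrap small vessels, stood at 36.3 CPM (33.6 to 39.1, 1746 cells). Endothelial-like cells stood at 30.2 CPM (29.2 to 31.3, 11827 cells) and held 33.7% of the UMIs, from more cells at a lower level than the fibroblast-like class.

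The pooled fibroblast-like level was 1.56 times the pericyte-like level, which was 1.20 times the endothelial-like level, and these 3 pooled intervals did not overlap. The full order did not hold within single libraries. Fibroblast-like cells stood above endothelial-like cells without overlap in libraries 1, 3 and 4, but not in library 2, where only 22 fibroblast-like cells were found. Pericyte-like cells stood above endothelial-like cells without overlap in libraries 1 and 2, and overlapped them in libraries 3 and 4. Gates on marker UMIs in place of clusters kept only 457 fibroblasts and 407 endothelial cells, which widens the intervals. These fibroblasts stood at 39.2 CPM (31.6 to 48.1), which overlapped the endothelial cells at 28.5 CPM (19.8 to 39.9). Erythroid-like cells, named for their haemoglobin genes, followed at 16.5 CPM (12.8 to 20.9), and 46.4% of them also carried a UMI of Pecam1, an endothelial adhesion molecule. Smooth muscle-like cells stood at 3.86 CPM (2.59 to 5.54), and its interval overlapped that of the next class. The B-like, granulocyte-like, cardiomyocyte-like, macrophage/monocyte-like and T/NK-like classes lay between 0.944 and 2.18 CPM with overlapping neighbours.

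A Cx3cl1 UMI was seen in 40.0% of fibroblast-like cells (38.6% to 41.4%, median depth 14446 UMIs), 21.8% of pericyte-like cells (median depth 6626) and 17.3% of endothelial-like cells (16.7% to 18.0%, median depth 5820). In T/NK-like cells, which should lack the ligand, the share was 1.02% at a median depth of 8441 UMIs. The classes thus differed from this background by more than depth. Cells of at least 1000 UMIs were then thinned to 1000, and shallower cells, 115 of 1746 in the pericyte-like class, were left out. The thinned shares were 5.04% in fibroblast-like, 2.77% in endothelial-like, 2.21% in pericyte-like and 0.163% in T/NK-like cells. The thinned pericyte-like interval (1.55% to 3.04%) overlapped the endothelial-like one (2.47% to 3.08%). Before thinning, 1502 of 2050 endothelial-like and 885 of 1908 fibroblast-like cells that carried the ligand held a single molecule. Those with 5 or more numbered 45 and 220. These counts are not matched for depth, as the fibroblast-like cells with a UMI had a median of 20904 UMIs against 10430.5.

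**Figure D1:**
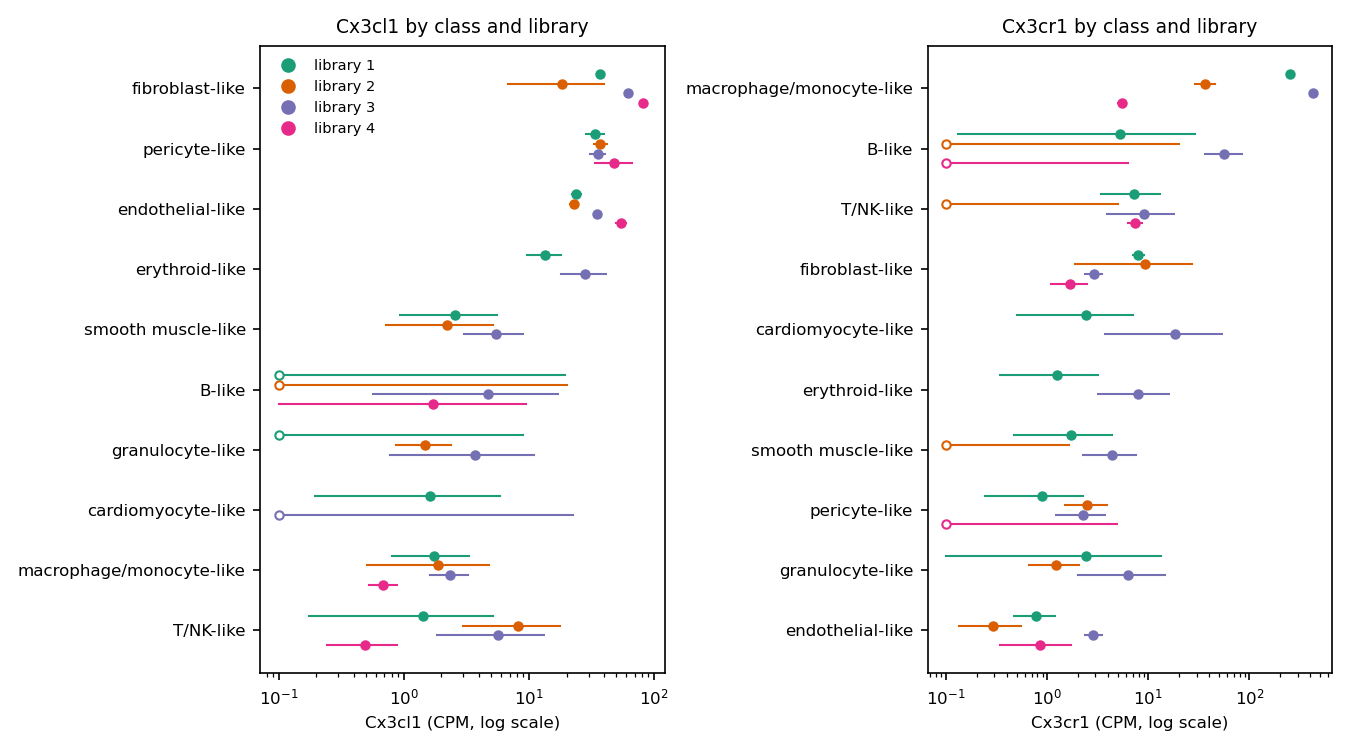
Cx3cl1 (left) and Cx3cr1 (right) level in each cell class, in CPM on a log axis, with 1 point for each library of at least 20 cells and bars for the exact Poisson 95% interval; hollow points are libraries with no UMI, drawn at the left edge. Over the pooled libraries the ligand is highest in fibroblast-like, pericyte-like and endothelial-like cells. The receptor in macrophage/monocyte-like cells ranges from 5.47 to 421 CPM between libraries.

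In endothelial-like cells Cx3cl1 stood at 23.9 CPM in library 1 (22.0 to 25.9), 23.1 in library 2 (21.4 to 24.9), 34.8 in library 3 (32.95 to 36.7) and 54.4 in library 4 (49.5 to 59.7). Libraries 1 and 2 overlapped, and libraries 3 and 4 stood above them and apart from each other. In fibroblast-like cells the levels were 37.3 CPM in library 1 (35.0 to 39.6), 61.6 in library 3 (59.1 to 64.1) and 82.1 in library 4 (77.6 to 86.9). Library 2 held only 22 fibroblast-like cells with 6 Cx3cl1 UMIs, or 18.4 CPM (6.77 to 40.1). Library 4 was thus the highest in both classes. In pericyte-like cells the 4 libraries stood at 34.0, 37.2, 35.5 and 48.1 CPM in order, the last from 45 cells, and all 4 intervals overlapped.

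The fibroblast-like class was made of 3 clusters, each drawn mostly from 1 or 2 libraries. The cluster led by Timp1, Cxcl14 and C1rb, an inhibitor of matrix proteases, a chemokine and a complement protease, came almost wholly from library 4 and stood there at 82.4 CPM (77.8 to 87.2, 561 cells). The cluster led by Cilp, Postn and Ptn, all matrix or secreted proteins, stood at 44.4 CPM in library 1 (40.3 to 48.8) and 64.5 CPM in library 3 (61.9 to 67.1). The cluster led by Clec3b, Gsn and Htra3 stood lower in both of those libraries, at 33.3 CPM (30.7 to 36.1) and 27.0 CPM (21.3 to 33.7). Within library 3 the Postn cluster and the Clec3b cluster did not overlap, so fibroblast-like cells of a single library differed in their ligand level by cluster. An unnamed cluster of library 2 led by Prg4, Cxcl5 and Ptx3 stood at 5.10 CPM (4.17 to 6.18, 788 cells), far below the named fibroblast-like clusters. The cluster level and the library cannot be told apart where a cluster comes from a single library.

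Endothelial-like cells were clustered again to ask which vessel types carried the ligand. Arterial-like cells, led by the gap junction gene Gja5, held the most at 67.8 CPM (62.0 to 74.1, 764 cells). Interferon-response-like cells, led by Ubd, Serpina3g and Cxcl9, stood at 56.5 CPM (51.4 to 61.9, 628 cells). These 2 subclusters did not overlap, by a narrow margin. Venous/endocardial-like cells stood at 36.4 CPM (27.0 to 48.0, 137 cells) and cycling-like cells at 33.1 CPM (27.3 to 39.7). Lymphatic-like cells, marked by Prox1 and Lyve1, held 2 Cx3cl1 UMIs in 166 cells, or 0.863 CPM (0.105 to 3.12), a level no higher than in T/NK-like cells. The other 6 subclusters carried too few vessel type markers, or too mixed a set, to be named and lay between 14.0 and 29.7 CPM.

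The arterial-like level was 139.7 CPM when coarser subclustering (resolution 0.3) left 66 cells under that name, and it differed between libraries. At the resolution used it was 44.2 CPM in library 1 (35.7 to 54.2, 287 cells), 85.0 in library 2 (63.8 to 111, 69 cells) and 76.3 in library 3 (68.5 to 84.8, 407 cells), while library 4 held almost none of these cells. Within each of libraries 1, 2 and 3 it lay above that library's whole endothelial-like level, given above, with no overlap. In libraries 1 and 3 venous/endocardial-like cells stood at 30.4 CPM (19.7 to 44.9) and 47.7 CPM (30.9 to 70.4), and both intervals overlapped that of arterial-like cells of the same library. At the resolution used, interferon-response-like cells came almost wholly from library 4. In that library they made up 626 of 640 endothelial-like cells at 56.6 CPM, so that subcluster and library 4 cannot be told apart.

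**Figure D2:**
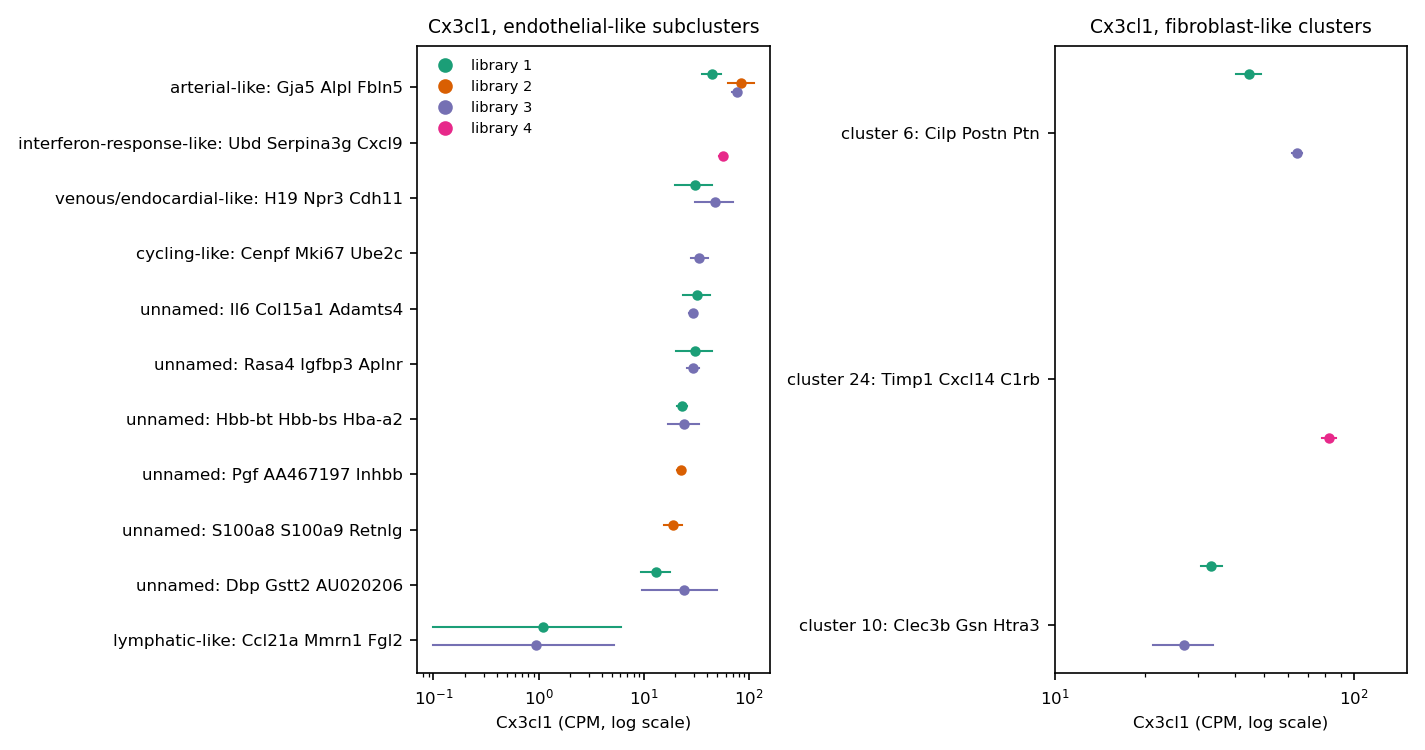
Cx3cl1 level in the endothelial-like subclusters (left) and the fibroblast-like clusters (right), in CPM, each on its own log axis. There is 1 point for each library of at least 20 cells, with bars for the exact Poisson 95% interval. Hollow points are libraries with no UMI. On the left, arterial-like cells (44.2 to 85.0 CPM by library) and interferon-response-like cells (56.6 CPM in library 4) have the highest pooled levels. Venous/endocardial-like intervals overlap those of arterial-like cells of the same library. Lymphatic-like cells lie lowest at about 1 CPM.

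To see which genes went with the ligand inside the endothelium, the 2050 endothelial-like cells with a Cx3cl1 UMI were set beside the 9777 without one, the latter weighted to the same mix of library and depth. Of 6383 genes compared, 31 were at least 1.5-fold higher (0.486%) and 33 at least 1.5-fold lower (0.517%) in cells with the UMI. Arterial genes stood out by count, with 6 of the 8 measured at least 1.5-fold higher and a median ratio of 1.98, against 1.01 over all genes. Gja5, which encodes connexin 40 of arterial endothelium, was at 37.9 CPM in cells with a Cx3cl1 UMI and 9.17 CPM in cells without, a ratio of 4.13. Fbln5, an elastic fibre protein, had a ratio of 2.31, Sema3g, a secreted arterial semaphorin, 2.18, and Gja4, a second arterial connexin, 2.12. Hey1, a Notch target that marks arterial fate, had a ratio of 1.81, and Stmn2, a microtubule regulator, 1.85. The ratio for Gja5 lay above 1.5 in each of the 4 libraries (1.84 to 6.30), whereas that for Gja4 was 0.932 in library 1.

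The arterial ratios were smaller with the subcluster held equal. When cells were also weighted to the same mix of subclusters, 8 genes in all were at least 1.5-fold higher. Of the arterial genes 1, Gja5, stayed at least 1.5-fold higher, at 2.00, and the list's median was 1.36. The 6 capillary genes had a median ratio of 0.957 with none past 1.5-fold in either direction. Among 11 endothelial NF-kB targets, the genes that inflammatory cytokines switch on through the factor NF-kB, only Csf1, the macrophage growth factor, was past 1.5-fold, at 1.52, and the median was 1.21. Of these, the adhesion molecules Vcam1 and Icam1 had ratios of 1.34 and 1.22. None of the 8 interferon gamma response genes measured was past 1.5-fold (median 1.11). None of the 5 sheddases and partners was either (median 1.03). The ratios were weighted by library, and interferon-response-like cells came almost wholly from a single library. The ratios therefore do not set that subcluster against other endothelial-like cells. The 5 highest ratios of all genes were those of Gja5, Slc45a4 (a sugar transporter family member, 2.69), St8sia6 (a sialyltransferase, 2.34), Fbln5 and Htra1 (a secreted serine protease, 2.27).

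In fibroblast-like cells the same comparison set 1908 cells with a Cx3cl1 UMI beside 2865 without. Of 6288 genes, 49 were at least 1.5-fold higher (0.779%) and 73 at least 1.5-fold lower (1.16%). Of 8 interferon gamma response genes 1 was past 1.5-fold, the T cell chemokine Cxcl9, at 912 CPM against 475 CPM, a ratio of 1.92. Its ratio was 0.761 in library 1, 2.30 in library 3 and 1.93 in library 4, so the direction was not shared by library 1. Cxcl10, a related chemokine, had a ratio of 1.15. The highest ratios were those of Crabp2, a retinoic acid carrier (2.46), Spp1, the matrix protein osteopontin (2.31), Ttc9 (2.25), Nos2, the inducible nitric oxide synthase (2.20), and C1qa, a complement chain made by macrophages (2.09). Crabp2, Spp1 and Ttc9 were at least 1.82-fold higher in each of libraries 1, 3 and 4, whereas C1qa was higher in library 4 (3.21) and not in library 1 (0.754). C1qa marks another cell type, and its part in the fibroblast-like result was not tested.

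The second question was which cells carried the receptor. Cx3cr1 was concentrated in macrophage/monocyte-like cells, which stood at 73.0 CPM (71.5 to 74.7, 7508 cells) and held 83.7% of all Cx3cr1 UMIs. The B-like class came next at 18.1 CPM (11.7 to 26.8), but 21 of its 25 UMIs lay in 1 cell that also carried 14162 CPM of the macrophage genes C1qa, C1qb, C1qc and Csf1r. T/NK-like cells stood at 7.20 CPM (6.19 to 8.32, 1869 cells), fibroblast-like cells at 4.44 CPM (3.99 to 4.92), and endothelial-like cells lowest at 1.41 CPM (1.19 to 1.66). The macrophage/monocyte-like, B-like, T/NK-like and fibroblast-like intervals did not overlap, while each class from fibroblast-like downward overlapped the next.

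A Cx3cr1 UMI was found in 17.9% of macrophage/monocyte-like cells (17.1% to 18.8%, median depth 14243 UMIs), and in 1.06% of endothelial-like cells, which should lack the receptor, at a median depth of 5820 UMIs. Thinned to 1000 UMIs per cell the shares were 6.40% (5.86% to 6.98%) and 0.217% (0.140% to 0.3199%). The receptor was also unevenly shared within its class. Of the 1346 macrophage/monocyte-like cells with a Cx3cr1 UMI, 642 held 5 or more and carried 81.6% of the class's Cx3cr1 molecules.

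Cx3cr1 in macrophage/monocyte-like cells stood at 251 CPM in library 1 (238 to 265, 432 cells), 36.7 in library 2 (29.1 to 45.8, 151 cells), 421 in library 3 (411 to 432, 1066 cells) and 5.47 in library 4 (4.99 to 5.98, 5859 cells). No library overlapped another. A UMI was seen in 51.4%, 15.9%, 80.6% and 4.11% of these cells in libraries 1 to 4. Library 4 held most cells of the class and the least receptor, so the pooled level is set largely by how many phagocytes each library held: without library 4 it was 344.6 CPM, and without library 3 it was 19.3 CPM. It also depended on the class's borders, at 5.64 CPM with clustering at resolution 0.4 and 10.7 CPM with 20 principal components, where the cluster led by Fcrls was left unnamed, and 11.1 CPM with cells gated on marker UMIs. An Fcrls-led cluster was the highest of all clusters for Cx3cr1 at both of those settings, at 211.7 and 344.6 CPM. At resolution 0.4 it was a wider cluster of 2692 cells, 999 of them from library 2, with Pf4 and Arg1 also among its leading genes.

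Macrophage/monocyte-like cells were clustered again to ask which phagocytes carried the receptor. The highest subcluster, led by Gdf15, Fcrls and Ms4a7, carried 5 of 6 C1q macrophage markers but stayed unnamed because its 10 leading genes held more markers of the Arg1 macrophage type (Spp1, Gpnmb) than of the C1q type (Apoe). With finer subclusters, at resolution 1.0, a C1q macrophage-like subcluster of 1097 cells was named and stood at 465 CPM (454 to 477). At the resolution used, the Fcrls-led subcluster itself stood at 383 CPM (374 to 393, 1268 cells). It came almost wholly from libraries 1 and 3, at 261 CPM (246 to 277, 323 cells) and 429 CPM (418 to 440, 940 cells). Cycling-like cells stood at 370 CPM in library 3 (332 to 411), from 33 cells, and at 15.4 CPM in library 4 (13.2 to 17.8, 461 cells). Their pooled level of 49.8 CPM therefore describes neither library. Resident macrophage-like cells, which carried the scavenger receptor Cd163 and the hyaluronan receptor Lyve1 and came from library 2, stood at 37.7 CPM (29.8 to 47.0, 146 cells). Over all 150 cells of this subcluster, 63 of 83 Cx3cr1 UMIs lay in 10 cells. A further unnamed subcluster, led by the haemoglobin genes Hbb-bt, Hbb-bs and Hba-a1 and also by the endothelial cadherin Cdh5, held 185 cells at a median depth of 1416 UMIs. It stood at 85.0 CPM in library 1 (57.4 to 121, 90 cells) and 356 CPM in library 3 (313 to 404, 90 cells), and the part of the other cell types' genes in these levels was not tested. An unnamed cluster outside the class, led by Arg1, Ccl24 and Ccl9, stood at 88.7 CPM in library 1 (73.5 to 106), 8.48 in library 2 (6.96 to 10.2) and 128 in library 3 (106 to 154).

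Library 4 allowed monocyte types to be set side by side within a single library. There nonclassical monocyte-like cells, led by Treml4, Itgal and Ace, stood at 16.3 CPM (13.5 to 19.6, 684 cells) and classical monocyte-like cells, led by Chil3, Vcan and Ly6c2, at 3.63 CPM (2.67 to 4.83, 1040 cells), with no overlap. Dendritic-like cells gave 7.55 CPM (4.22 to 12.5, 143 cells), but their 15 UMIs lay in 4 cells and 10 of them in 1 cell, without which the subcluster stood at 2.502 CPM (0.812 to 5.84), so it was not placed in the order. The 2 large unnamed subclusters of library 4, led by Inhba and by Gm15056, stood at 2.48 CPM (1.90 to 3.19) and 2.03 CPM (1.56 to 2.61). Cycling-like cells of library 4, given above, overlapped the nonclassical level, so that level was not particular to nonclassical cells. With finer subclusters, at resolution 1.0, an Arg1 macrophage-like subcluster led by Ccl8, almost wholly from library 4, stood at 11.9 CPM (9.97 to 14.2). It overlapped the nonclassical level at that resolution, 14.9 CPM (12.5 to 17.8). A Cx3cr1 UMI was seen in 9.94% of nonclassical and 2.21% of classical monocyte-like cells of library 4, at median depths of 11140.5 and 13038 UMIs, and the thinned shares were 3.36% and 0.289%. The share in endothelial-like cells of the same library was 0.781%, at a median depth of 9517 UMIs.

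**Figure D3:**
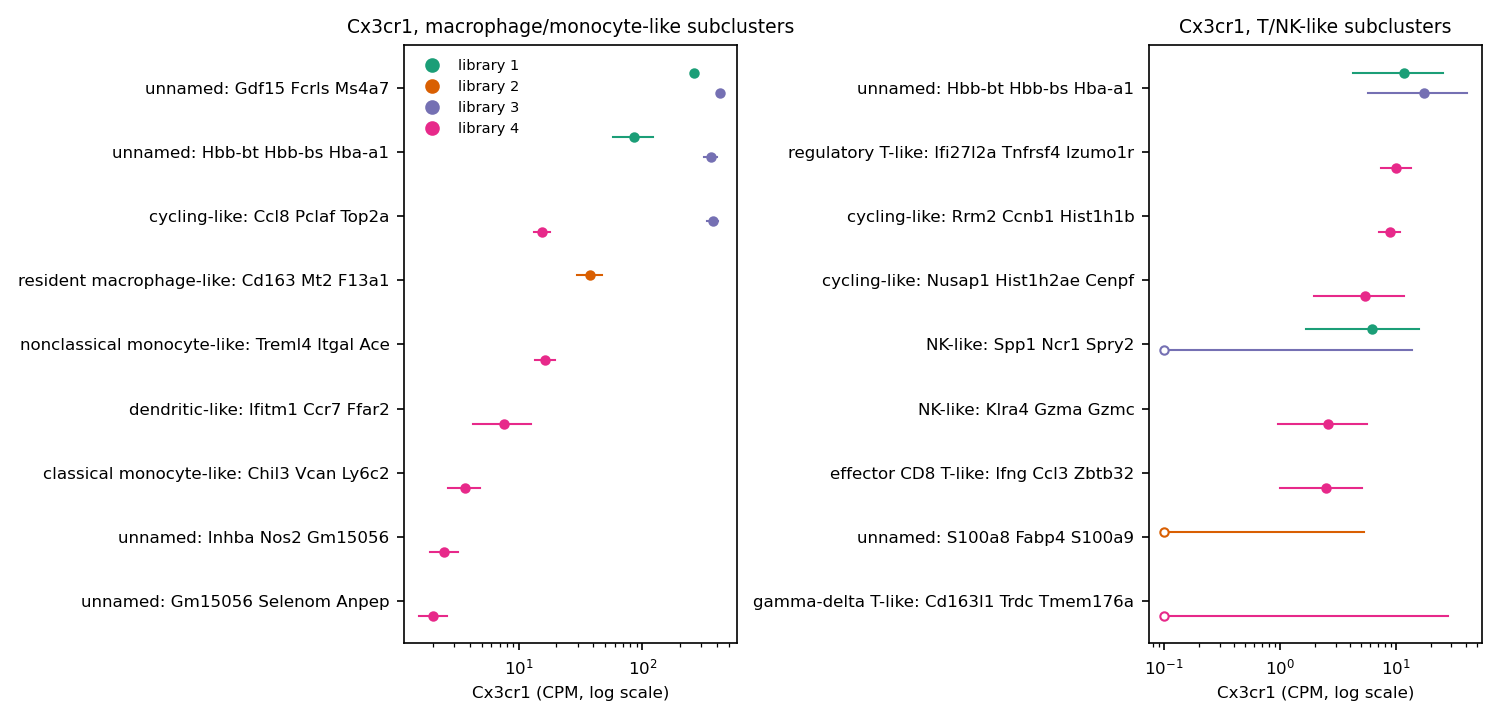
Cx3cr1 level in the macrophage/monocyte-like and T/NK-like subclusters, in CPM on a log axis, with 1 point for each library of at least 20 cells and bars for the exact Poisson 95% interval; hollow points are libraries with no UMI. Phagocytes of libraries 1 and 3 reach 261 to 429 CPM in the Fcrls-led subcluster, and within library 4 nonclassical monocyte-like cells (16.3 CPM) lie above classical ones (3.63 CPM). Cycling-like phagocytes of library 4 overlap the nonclassical ones.

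Within the macrophage/monocyte-like class, the 1346 cells with a Cx3cr1 UMI were compared with the 6162 without one in the same way. Of 5731 genes, 127 were at least 1.5-fold higher (2.22%) and 109 at least 1.5-fold lower (1.90%). Genes best known from microglia, the macrophages of the brain, were higher by count, with 5 of the 7 measured at least 1.5-fold higher and a median ratio of 1.53, against 1.01 over all genes. Tmem119, a microglial surface protein, had a ratio of 2.14, Gpr34, a lipid receptor, 1.99, Fcrls, an Fc receptor-like scavenger protein, 1.96, and P2ry12, the ADP receptor, 1.51. In libraries 1 and 3 the ratios of these 4 ranged from 1.57 to 2.70, whereas in library 4 P2ry12 and Gpr34 lay below 1 (0.976 and 0.664). With subclusters also matched, 4 of the 7 stayed past 1.5-fold and the median was 1.51.

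Classical monocyte genes lay on the other side. Of 6 measured, 3 were at least 1.5-fold lower, among them the chitinase-like Chil3 (0.264) and the surface antigen Ly6c2 (0.4998), and the median ratio was 0.661. Ly6c2 had a ratio of 0.349 in library 3 and 0.5002 in library 4 but 3.17 in library 1, so this direction did not hold in every library. Nonclassical monocyte genes had 2 of 4 past 1.5-fold, the sialoglycoprotein Spn (2.07) and the transcription factor Pou2f2 (1.59). None of 5 resident macrophage genes was past 1.5-fold (median 0.955). None of 7 integrins and receptor signalling genes was either (median 1.08). The 5 highest ratios were those of the B cell chemokine Cxcl13 (13.5), the proliferation genes Pclaf (10.7) and Birc5 (9.20), and the haemoglobin genes Hbb-bt (10.3) and Hba-a1 (9.01). The haemoglobin genes led the unnamed subcluster of 185 cells described above. Their ratios came from library 1, at 27.8 and 33.5, and were 1.09 and 1.18 in library 3, and Cxcl13 had a ratio of 0 in library 4.

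The nonclassical monocyte-like subcluster of library 4 gave the same comparison without a change of library. Its 68 cells with a Cx3cr1 UMI were compared with 616 without. With few cells, 390 of 5466 genes were at least 1.5-fold higher (7.14%) and 426 at least 1.5-fold lower (7.79%), so a single gene past 1.5-fold carries little weight here. Of 8 nonclassical monocyte genes, 4 were at least 1.5-fold higher, the enolase Eno3 (3.19), Spn (1.91), the transcription factor Nr4a1 on which these monocytes depend (1.73) and the ribonuclease Ear2 (1.66), and the median was 1.57. Of 7 classical monocyte genes, 4 were at least 1.5-fold lower, with Chil3 at 0.0847 and Ly6c2 at 0.525, and the median was 0.604. Of 9 interferon gamma response genes 2 were at least 1.5-fold lower, the chemokines Cxcl9 (0.497) and Cxcl10 (0.373), and the median was 0.920. Of 4 sheddases and partners measured, 2 were at least 1.5-fold lower, Adam10 and Rhbdf2, with a median of 0.664. Cxcl16, the other membrane-anchored chemokine, had a ratio of 0.635. Its highest ratios were those of the arginase Arg1 (5.97), the prostaglandin-degrading enzyme Hpgd (4.75), the adrenergic receptor Adrb1 (4.35), the calcineurin regulator Rcan1 (3.88) and the kinase Ip6k3 (3.84).

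**Figure D4:**
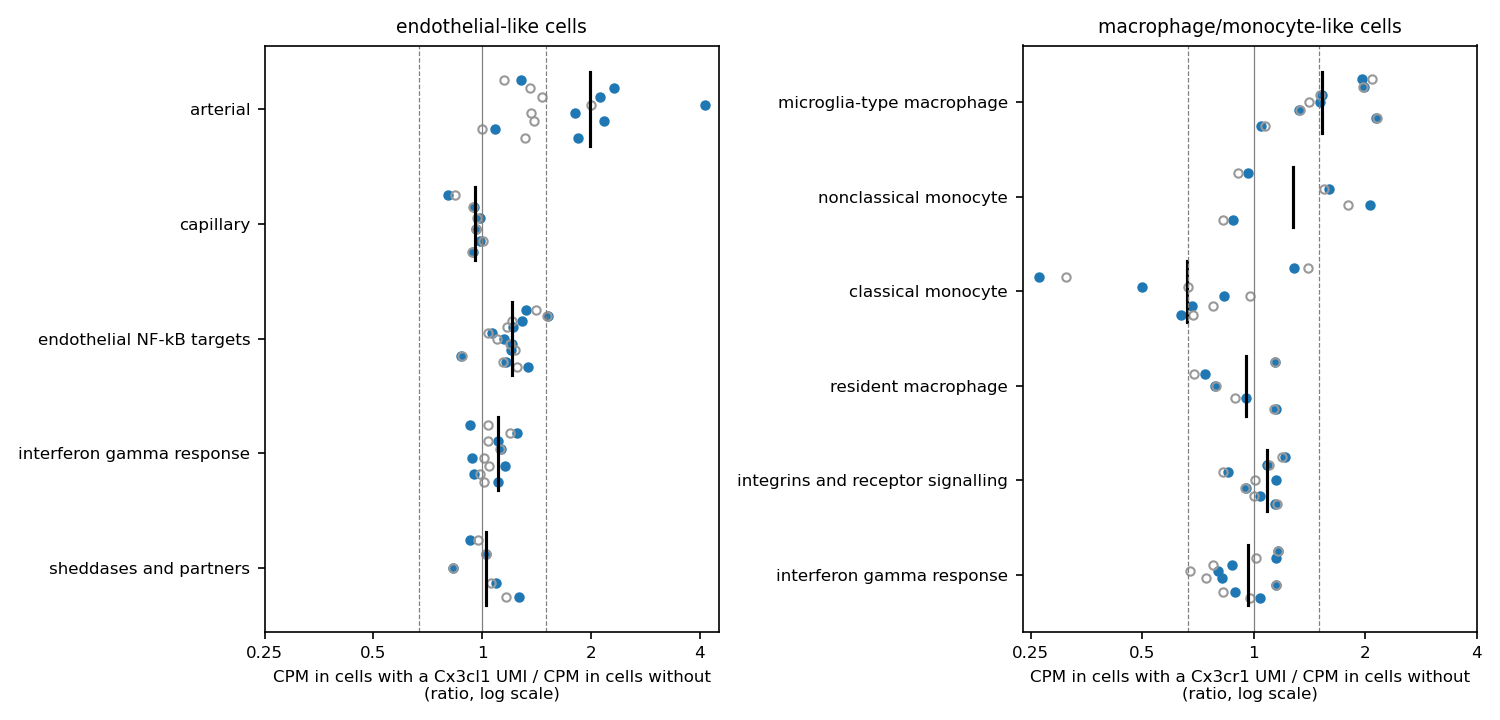
Ratio of a gene's CPM in cells with a member's UMI to that in cells of the same class without it, on a log axis, for listed genes in endothelial-like cells (Cx3cl1, left) and macrophage/monocyte-like cells (Cx3cr1, right); filled points match library and depth, hollow points also match the subcluster, black bars are list medians of the filled points, and dashed lines mark 1.5-fold in either direction. Arterial genes reach a median of 1.98 beside Cx3cl1 and microglia-type genes 1.53 beside Cx3cr1, while classical monocyte genes lie at 0.661.

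In T/NK-like cells Cx3cr1 was low. It stood at 7.18 CPM in library 1 (3.44 to 13.2, 10 UMIs), at 9.12 CPM in library 3 (3.94 to 18.0, 8 UMIs) and at 7.36 CPM in library 4 (6.28 to 8.57, 165 UMIs). In library 2 it was seen in 0 of 164 cells. By the 3-count limit this allows a share of cells with a UMI of up to 1.83%, and it sets no limit on cells that express the gene. The 4 intervals overlapped except that library 4 lay above the exact upper bound of library 2, 5.01 CPM. In library 4 T/NK-like cells stood above macrophage/monocyte-like cells of the same library (5.47 CPM, 4.99 to 5.98) and endothelial-like cells (0.841 CPM, 0.338 to 1.73). The macrophage genes C1qa, C1qb, C1qc and Csf1r together stood at 179 CPM in T/NK-like cells with a Cx3cr1 UMI and 206 CPM in those without, against 16931 CPM in macrophage/monocyte-like cells with the UMI. A UMI was seen in 5.51% of T/NK-like cells at a median depth of 8441. The thinned share was 0.488% (0.223% to 0.924%), and its interval overlapped that of endothelial-like cells (0.140% to 0.3199%). Thinning leaves few UMIs of so low a gene, so this overlap does not decide whether the share exceeds that background. The pooled levels of the 2 classes, 7.20 CPM (6.19 to 8.32) and 1.41 CPM (1.19 to 1.66), did not overlap.

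Among T/NK-like subclusters the one named regulatory T-like from its markers, Foxp3 and Cd4 among them, stood at 9.84 CPM (7.21 to 13.1, 535 cells). This subcluster was mixed. At resolution 1.0 only 207 of its cells fell in a regulatory T-like subcluster, at 14.3 CPM (9.42 to 20.8, 211 cells), while 257 formed an unnamed subcluster led by Ly6c2, Dapl1 and the CD8 chain Cd8b1, at 6.78 CPM (3.80 to 11.2), and 70 joined an unnamed subcluster led by Cd74, Cybb and Lyz2. The larger cycling-like subcluster stood at 8.80 CPM (7.17 to 10.7, 369 cells). Both NK-like subclusters (2.59 and 4.17 CPM) and effector CD8 T-like cells (2.47 CPM, 0.993 to 5.09) lay lower. Gamma-delta T-like cells held no Cx3cr1 UMI in 53 cells. By the 3-count limit this allows a share of cells with a UMI of up to 5.66% and a level of up to 10.4 CPM. The exact interval, with an upper bound of 12.8 CPM, overlapped every other subcluster, so no order was read from it. The mixed regulatory T-like and the larger cycling-like subclusters did not overlap effector CD8 T-like cells, but they overlapped the NK-like subcluster at 4.17 CPM. The cycling-like share of 15.99% came at a median depth of 28628 UMIs. After thinning it was 0, with an exact upper bound of 0.995%. That bound lies above the thinned share of all T/NK-like cells (0.488%), so the 0 does not set these cells apart. Gates on marker UMIs, which do not depend on how T/NK-like cells were subclustered, gave 6.77 CPM in CD8 T cells (5.47 to 8.29, 741 cells), 12.95 CPM in CD4 T cells (9.48 to 17.3, 299 cells) and 4.01 CPM in NK cells (2.00 to 7.18, 265 cells). All 46 CD4 T cell UMIs came from library 4, which held 227 of the 299 gated cells, and 34 of the UMIs lay in 10 cells. The other libraries held 15 to 37 such cells each. Their upper bounds of 21.7 to 41.4 CPM lay above the pooled level, so no difference between libraries was read.

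In T/NK-like cells 103 carried a Cx3cr1 UMI and 1766 did not. Of the 103 cells, 59 lay in the larger cycling-like subcluster. Their median depth was 19019 UMIs, against 8058 in cells without the UMI. The thinned share with a UMI overlapped that of endothelial-like cells, so the ratios below need not describe lymphocytes that express the receptor. With few cells, a single gene carries little weight. Of 5749 genes, 105 were at least 1.5-fold higher (1.83%) and 62 at least 1.5-fold lower (1.08%) in cells with the Cx3cr1 UMI. None of 6 mature effector lymphocyte genes was at least 1.5-fold higher, and the granule protease Gzma was lower, at 710 CPM against 2406 CPM, a ratio of 0.295. With subclusters also matched its ratio was 0.655. Of 6 resting lymphocyte genes, 3 were lower, among them the transcription factor Tcf7 (0.529) and the chemokine receptor Ccr7 (0.648), and the median was 0.701. The highest ratios were those of the semaphorin co-receptor Nrp2 (14.6), the chemokine Ccl9 (5.56), Ly6d (5.52), the T cell receptor constant gene Tcrg-C2 (3.82) and the metallothionein Mt3 (3.59). The ratio of Nrp2 was 1.80 with subclusters matched.

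Some cells outside the phagocytes carried many Cx3cr1 molecules. In the fibroblast-like class 19 cells with 5 or more Cx3cr1 UMIs held 252 of 366 UMIs (68.9%), and 13 of the 19 came from library 1. Of these cells 10 held no UMI of C1qa, C1qb, C1qc or Csf1r, and together the 19 stood at 34.2 CPM of those genes, against 120 CPM in fibroblast-like cells without a Cx3cr1 UMI and 19331 CPM in macrophage/monocyte-like cells with 5 or more. Their collagen and decorin genes stood at 43901 CPM, against 38974 CPM in fibroblast-like cells without the receptor. In the unnamed Prg4, Cxcl5 and Ptx3 cluster 16 cells, all of library 2, held 204 of 228 Cx3cr1 UMIs (89.5%), and 11 of them held no UMI of the macrophage genes. Together these 16 stood at 9.07 CPM of the macrophage genes, against 12.6 CPM in cells of the cluster without a Cx3cr1 UMI. The cause of these high counts was not tested.

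**Figure D5:**
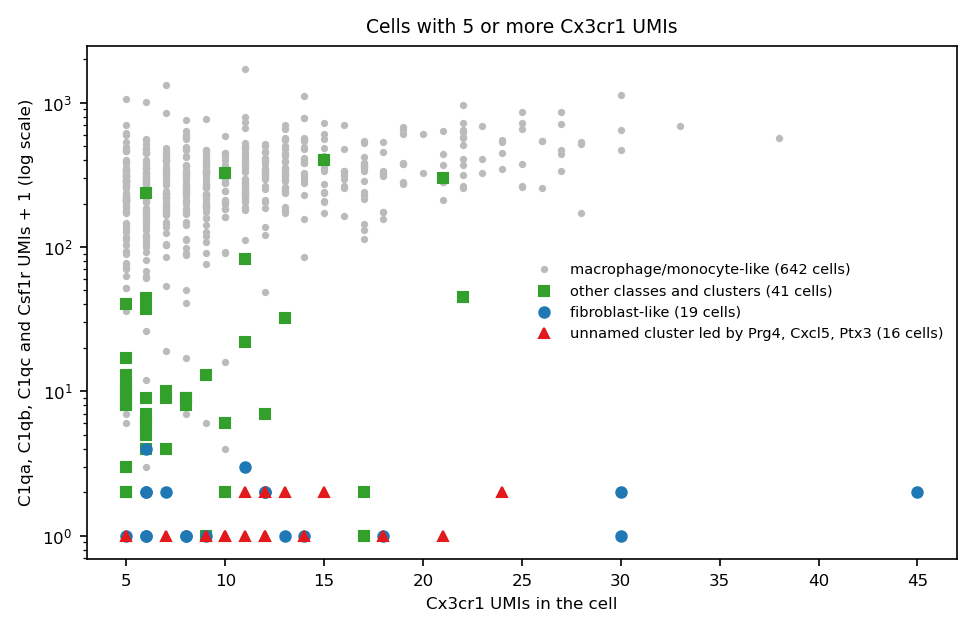
Each point is a cell with 5 or more Cx3cr1 UMIs, by its Cx3cr1 UMIs and its summed UMIs of C1qa, C1qb, C1qc and Csf1r plus 1 (log axis), with 642 macrophage/monocyte-like cells in grey, 19 fibroblast-like in blue, 16 of the Prg4-led cluster in red and 41 others in green. Macrophage/monocyte-like cells all carry macrophage genes (642 of 642), whereas 10 of 19 fibroblast-like cells and 11 of 16 cells of the Prg4, Cxcl5 and Ptx3 cluster carry none.

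Few cells held a UMI of both genes. Of 42395 cells 141 did (0.333%), 55 of them fibroblast-like, 32 macrophage/monocyte-like and 27 endothelial-like. Their median depth was 19348 UMIs against 6430 in all cells. Each gene alone was also seen in a small share of cells, Cx3cl1 in 11.5% and Cx3cr1 in 4.75%. The joint count therefore does not show that the genes avoid each other, and whether they do was not tested. The genes whose level was most like that of each member were found over 44 classes and subclusters of at least 50 cells and 8010 genes, by Pearson correlation of log2(CPM + 10), as a description with no test, since the units share libraries and depth. For Cx3cl1 these were Plscr2 (r 0.907), Mecom (0.904), Msx1 (0.902), Ddah2 (0.894) and Cd34 (0.891). For Cx3cr1 they were Fcrls (0.917), Hpgds (0.909), Ms4a7 (0.893), Hpgd (0.890) and Clec4b1 (0.863).

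The other genes of the pathway were read as levels in the classes that carried the pair. These levels, and those of Cxcl16, the integrins and the cytokines below, are pooled over libraries. The classes came from different libraries. Of 1869 T/NK-like cells 1407 came from library 4, and 2050 of 2066 cells of the larger granulocyte-like cluster came from library 2. The part of the library in these differences between classes was not tested. Adam10, the main constitutive sheddase of fractalkine, stood at 125 CPM in endothelial-like cells and 55.7 CPM in fibroblast-like cells. Adam17, the inducible sheddase, stood at 54.1 and 55.1 CPM in those classes, whose intervals overlapped, and at 103 CPM in macrophage/monocyte-like cells. Its trafficking partners divided between the sources, with Rhbdf2 at 60.6 CPM in endothelial-like and 11.4 CPM in fibroblast-like cells and Rhbdf1 at 19.4 and 58.3 CPM. Mmp2, a matrix protease that also cuts chemokines, was mainly fibroblast-like, at 1011 CPM against 14.4 CPM in endothelial-like cells. Ctss, cathepsin S, was mainly macrophage/monocyte-like, where it stood at 3490.1 CPM.

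Cxcl16, the other chemokine with a membrane anchor, had a different pattern from Cx3cl1. It was highest in macrophage/monocyte-like cells at 496 CPM, against 158 CPM in fibroblast-like and 53.1 CPM in endothelial-like cells. Its receptor Cxcr6 stood at 128 CPM in T/NK-like cells and at 0.958 CPM or less in the macrophage/monocyte-like, fibroblast-like, endothelial-like and pericyte-like classes. Among endothelial-like subclusters Cxcl16 was at 150.1 CPM in interferon-response-like cells and 32.4 CPM in arterial-like cells, whereas Cx3cl1 was high in both. Of the integrins that fractalkine can bind, Itgb1 was at 562 CPM in endothelial-like and 437 CPM in fibroblast-like cells, Itga4 at 154 CPM in macrophage/monocyte-like and 147 CPM in T/NK-like cells, Itgav at 108 CPM in fibroblast-like cells, and Itgb3 at 18.0 CPM or less in the endothelial-like, fibroblast-like, macrophage/monocyte-like and T/NK-like classes.

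Over the pooled libraries, cytokines that can induce fractalkine were highest in leukocytes, and cells that carried the ligand held their receptors. Ifng stood at 1184 CPM in T/NK-like cells and at 0.937 CPM in endothelial-like cells, with its receptor chain Ifngr1 at 267 CPM in endothelial-like and 195 CPM in fibroblast-like cells. Tnf was at 1413 CPM in granulocyte-like cells and 198 CPM in macrophage/monocyte-like cells, and its receptor Tnfrsf1a at 260.4 CPM in endothelial-like cells. Il1b was at 5455 CPM in granulocyte-like cells, and its receptor Il1r1 at 104 CPM in fibroblast-like and 41.3 CPM in endothelial-like cells. Of signalling proteins under the receptor, Gnai2, a G protein subunit that chemokine receptors use, stood at 1148 CPM in macrophage/monocyte-like cells and 721 CPM in T/NK-like cells.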

How the data were processed

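Heart grafts, 2 allogeneic and 2 syngeneic, were profiled with 3′ droplet libraries. The authors deposited 1 merged matrix of UMI counts for 53824 cells and 30905 genes, made per its header with Cell Ranger 3.0.0 against mm10 with Ensembl 92 genes. No count column was left unmapped (0), but cells could not be tied to grafts, so allogeneic and syngeneic grafts were not compared, the matrix was treated as 1 sample and no statistical test was run.

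Cells with over 200 genes and under 20% mitochondrial UMIs, the study's stated filters, were kept. Mitochondrial genes were then dropped, and the 5% of cells per library most like simulated doublets among 50 neighbours were left out. Counts were scaled to 10000 and log-transformed, 2000 variable genes without the members gave 10 principal components, and a graph of 30 neighbours was split by Leiden clustering at resolution 0.8 (igraph 0.11.9, leidenalg 0.10.2), with subclusters at 0.5. A cluster was named from at least 3 markers, each in at least 10% of its cells and 2-fold above the others. How ties were settled, and the class-level marker check for subclusters, were chosen after the clusters were seen. Names rebuilt this way may differ from the study's own. For thinned shares, cells of at least 1000 UMIs were thinned to 1000 and shallower cells were left out. Limits on 0 counts use 3 counts. Ratios compared cells with and without a member's UMI, weighted by library and 5 depth strata, among genes of at least 20 CPM in either. Scripts were tested on simulated data.

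The genes named were the members, the markers, the listed pathway and cell type genes, the 5 genes most like each member (at least 50 CPM in 1 unit) and the 5 highest ratios per comparison. Some listed genes counted in the lists are not reported here by name. The high-receptor cells outside the phagocytes were singled out after their values were seen. Members and lists were chosen with earlier results of these data known. Coordinates come from GENCODE on mm10 and promoter windows from RefSeq GRCm38.p6, in which both members matched. Alternatives covered filters, doublets, resolution, components, marker gates, equal library weight, thinning and single libraries left out.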

Additional observations from a re-analysis of the deposited data

Results flagged for a closer look

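Cells outside the comparisons also carried both genes. The 9198 cells that failed the filters on genes or mitochondrial UMIs held Cx3cl1 at 21.4 CPM and Cx3cr1 at 41.3 CPM, above the T/NK-like level of the ligand and the endothelial-like level of the receptor. The 2231 cells marked as doublets held Cx3cl1 at 25.2 CPM and Cx3cr1 at 24.9 CPM.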

How the results depend on the processing

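No paired analysis was possible because no value comes from a test and the grafts' replicate numbers cannot be tied to barcode suffixes. The order of the classes rests on cluster names, depth and which libraries are pooled, and intervals cover counting error only. Leaving out 1 library each moved Cx3cl1 to 27.5 to 33.3 CPM in endothelial-like and 51.2 to 67.0 CPM in fibroblast-like cells, and Cx3cr1 to 19.3 to 344.6 CPM in macrophage/monocyte-like and 5.99 to 7.41 CPM in T/NK-like cells. Equal weight of libraries gave 34.1, 60.3, 178.6 and 5.91 CPM in that order, the fibroblast-like value from 3 libraries without library 2. Marker gates in place of clusters gave 28.5, 39.2 and 11.1 CPM for the first 3. Thinning gave 53.1 CPM in fibroblast-like, 89.6 in macrophage/monocyte-like and 5.96 in T/NK-like cells. Keeping doublets gave Cx3cl1 at 28.2 and 54.5 CPM in endothelial-like and fibroblast-like cells. At least 500 genes per cell gave 29.1 CPM in endothelial-like cells and, for Cx3cr1, 70.3 CPM in macrophage/monocyte-like cells. Resolution 0.4 gave 51.2 CPM in fibroblast-like cells. Cx3cr1 in macrophage/monocyte-like cells was 5.64 CPM at resolution 0.4 and 10.7 CPM with 20 components, because an Fcrls-led cluster was then unnamed and outside the class. That cluster stood at 211.7 and 344.6 CPM, and at resolution 0.4 it was wider, with 2692 cells. Resolution 1.6 moved none of the 4 class levels beyond its counting interval.

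Subclusters at resolution 0.3 gave Cx3cl1 at 139.7 CPM in 66 arterial-like cells and Cx3cr1 at 5.65 CPM in classical monocyte-like cells, and no nonclassical subcluster, so that setting gave no value for it. Resolution 1.0 gave Cx3cl1 at 41.5 CPM in 1518 interferon-response-like cells. Of these, 628 formed the Ubd-led subcluster and 890 a further one led by Ifit1, Isg15 and Ifit2, with 825 cells from library 1. The same resolution gave Cx3cr1 at 14.3 CPM in regulatory T-like cells. With a 2-fold limit, genes higher in cells with the UMI numbered 12 in endothelial-like, 8 in fibroblast-like, 43 in macrophage/monocyte-like, 20 in T/NK-like and 97 in nonclassical monocyte-like cells. Matching subclusters gave 8 in endothelial-like cells. Further alternatives were chosen after seeing the data. Without their richest cell, dendritic-like cells gave 2.502 and regulatory T-like cells 8.57 CPM for Cx3cr1. Without the 10 cells richest in the gene the 4 class levels were 29.0, 54.8, 70.6 and 5.22 CPM. Adding the unnamed Prg4 cluster gave 46.5 CPM in fibroblast-like cells, and adding the Arg1 cluster gave 67.0 CPM for Cx3cr1 in macrophage/monocyte-like cells. Adding the Ctla2a cluster to the endothelial-like class left its level within the counting interval. The fibroblast-like and nonclassical ratio comparisons were also added after seeing the data.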
